A study of Mus musculus with 8 samples.

Results

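The genes described here are 58 genes that lie within about 20 Mb of Pus1 on mouse chromosome 5, among 13711 named genes measured in hearts of Pus1 mutant and wild-type mice. They were chosen by their position and by the mutant over wild-type ratios of these same arrays, so that their genotype differences are given as a description, with no test. On the array the 58 genes had 79 probes, and 73 of these, for 57 genes, were well above background in at least 4 of 8 samples and are called measured. The only probe of Med13l, a subunit of the Mediator kinase module, was above background in 0 samples. Probes of Pop5, Camkk2 and Mphosph9 were also above background in 0 samples, and 1 probe each of Kdm2b and Mlxip in 2 or 3, so that these genes are represented by their other probe.

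The mutant group was 4 mice homozygous for a mutant Pus1 and the control group was 4 wild-type mice, 2 females and 2 males in each. All 8 animals were C57BL/6J mice backcrossed for 5 generations and were 14 to 16 weeks old, and the piece of frozen heart taken held both atrium and ventricle. The series title calls the animals knockouts, and the labels do not say how the allele was made or which strain it came from. Every array paired a mutant heart with a wild-type heart, from females on arrays 1 and 2 and from males on arrays 3 and 4. Cy5 marked the mutant on arrays 1 and 3, and Cy3 marked it on arrays 2 and 4. Replicate n of either genotype is the heart on array n.

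When an altered allele is carried onto another strain by backcrossing and kept by selection for the allele, a stretch of the founder's chromosome on either side is kept with it. Genes on such a stretch can carry founder alleles in every mutant animal, and wild-type animals need not carry them. Sequence differences between strains can alter how much RNA a gene makes, which exons and ends its RNA has, or how well its RNA binds a short array probe. The deposited files hold no genotype of the flanking DNA, so its part in the values below was not tested.

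An even ratio here means the same sign of mutant over wild type on all 4 arrays. The promoters of 4 of the 8 genes with an even ratio of at least 0.5 in size on the log2 scale are shown first, with that of Mvk, which had an even ratio on both of its probes. The windows are the 200 bases before the annotated start, from RefSeq (GRCm38.p6), written along the gene's own strand. Capitals mark matches on either strand to the CCAAT box (CCAAT, or ATTGG on the opposite strand) and the GC box (GGGCGG, or CCGCCC).
P2rx7, first start (chr5:122643727-122643926, plus strand): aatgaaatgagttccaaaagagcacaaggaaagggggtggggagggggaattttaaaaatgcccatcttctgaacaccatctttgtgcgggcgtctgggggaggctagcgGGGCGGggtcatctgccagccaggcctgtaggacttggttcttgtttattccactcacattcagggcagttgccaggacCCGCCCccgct
P2rx7, second start (chr5:122650183-122650382, plus strand): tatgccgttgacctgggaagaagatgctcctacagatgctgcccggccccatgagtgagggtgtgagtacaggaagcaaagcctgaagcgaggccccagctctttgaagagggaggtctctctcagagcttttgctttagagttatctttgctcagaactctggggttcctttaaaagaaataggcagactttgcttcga
Anapc5 (chr5:122821343-122821542, minus strand): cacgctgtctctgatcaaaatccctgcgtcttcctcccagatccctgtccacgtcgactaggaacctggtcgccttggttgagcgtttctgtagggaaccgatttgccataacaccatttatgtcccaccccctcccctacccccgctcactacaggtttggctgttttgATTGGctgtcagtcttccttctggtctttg
Hspb8 (chr5:116422865-116423064, minus strand): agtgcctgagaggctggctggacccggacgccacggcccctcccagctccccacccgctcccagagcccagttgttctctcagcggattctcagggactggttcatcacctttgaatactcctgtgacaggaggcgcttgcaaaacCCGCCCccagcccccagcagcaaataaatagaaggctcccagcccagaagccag
Tesc (chr5:118027543-118027742, plus strand): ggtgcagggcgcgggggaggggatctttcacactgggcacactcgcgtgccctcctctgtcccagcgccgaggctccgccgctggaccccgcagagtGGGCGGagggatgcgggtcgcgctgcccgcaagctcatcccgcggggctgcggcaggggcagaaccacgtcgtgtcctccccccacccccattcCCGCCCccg
Mvk (chr5:114444069-114444268, plus strand): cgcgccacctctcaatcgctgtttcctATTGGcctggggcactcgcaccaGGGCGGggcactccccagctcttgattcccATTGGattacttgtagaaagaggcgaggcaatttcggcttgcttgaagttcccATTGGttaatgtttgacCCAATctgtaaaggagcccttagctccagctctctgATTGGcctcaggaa

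P2rx7 has a start with 2 GC boxes and another with no match, Tesc has 2 GC boxes, Hspb8 has 1 and Anapc5 has 1 CCAAT box. The Mvk window held 5 CCAAT boxes and 1 GC box, and Mvk shares this stretch with Mmab, a gene of cobalamin metabolism that is read in the opposite direction from a start 242 bases away. RefSeq windows were matched for 44 of the 58 genes, with 50 starts in all. Ift81, Pxmp2 and Sparcl1 were not matched. A CCAAT box was present in 30.0% of the 50 windows against 29.3% of 32851 windows of all genes, a GC box in 72.0% against 31.0%, and the E-box CACGTG in 12.0% against 5.26%. The TATA box TATAAA was present in 2.00% of the listed windows against 9.96% of all. The listed windows also had a higher median GC content, 66.5% against 53.0%, which the motif counts share. A match describes these letters and is not a bound site.

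The Pus1 probe checked the labels. Its level, the log2 brightness of the sample's own dye channel after normalization, was 7.07, 7.56, 7.24 and 7.13 in mutant replicates 1 to 4 and 9.22, 9.23, 8.92 and 9.01 in wild-type replicates 1 to 4. Feature Extraction called 44.7% to 54.6% of probes well above background in mutant hearts and 46.3% to 53.8% in wild-type hearts. All 9 ventricular myocyte markers were above background in all 8 samples. Of 6 atrial markers 5 were measured. Myl7 was above background in 5 samples and Sln in 6, and Bmp10 was not measured. The summed level of the 5 ran from 14.21 to 19.04 in mutant hearts and from 13.68 to 17.50 in wild-type hearts, and overlapped between the genotypes. In a piece of tissue, fewer cells of a type and less RNA per cell cannot be told apart. Summed erythroid markers ran from 17.60 to 20.34 in mutant hearts and from 18.04 to 20.11 in wild-type hearts. Nothing in the labels says how the animals were related. The p-values below, from limma, weigh ratios against their spread over the 4 arrays of these hearts, moderated by the spread over all probes.

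Across the 73 measured probes, 45 had a mean log2 ratio of mutant over wild type above 0 and 28 below 0. The median was 0.04, against -0.01 over all measured probes, and the median absolute ratio was 0.09 against 0.07. In 17 probes of 16 genes (23.3%) the ratio had the same sign on all 4 arrays, 12 times positive and 5 times negative, where 4.77% of 28471 probes with a value on every array did so. Of these, 8 probes of 8 genes (11.0%) had a mean of at least 0.5 in size, 4 higher and 4 lower in the mutant, against a background of 0.126%. The 4 mutant and the 4 wild-type levels did not overlap for 13 probes, 9 higher and 4 lower in the mutant, against 0.724% of all probes. In the limma fit 0 of the 73 passed adjusted p 0.05 for genotype, as did 0% of all 28528 probes, of which 283 had an unadjusted p under 0.05. Pus1 itself, 3.61-fold lower in the mutant (mean ratio -1.85, SD 0.22), did not pass either, so that 0 of 73 does not show an absence of differences. Since the genes were listed for this contrast, the counts say how the list was made and support nothing beyond it.

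**Figure D1:**
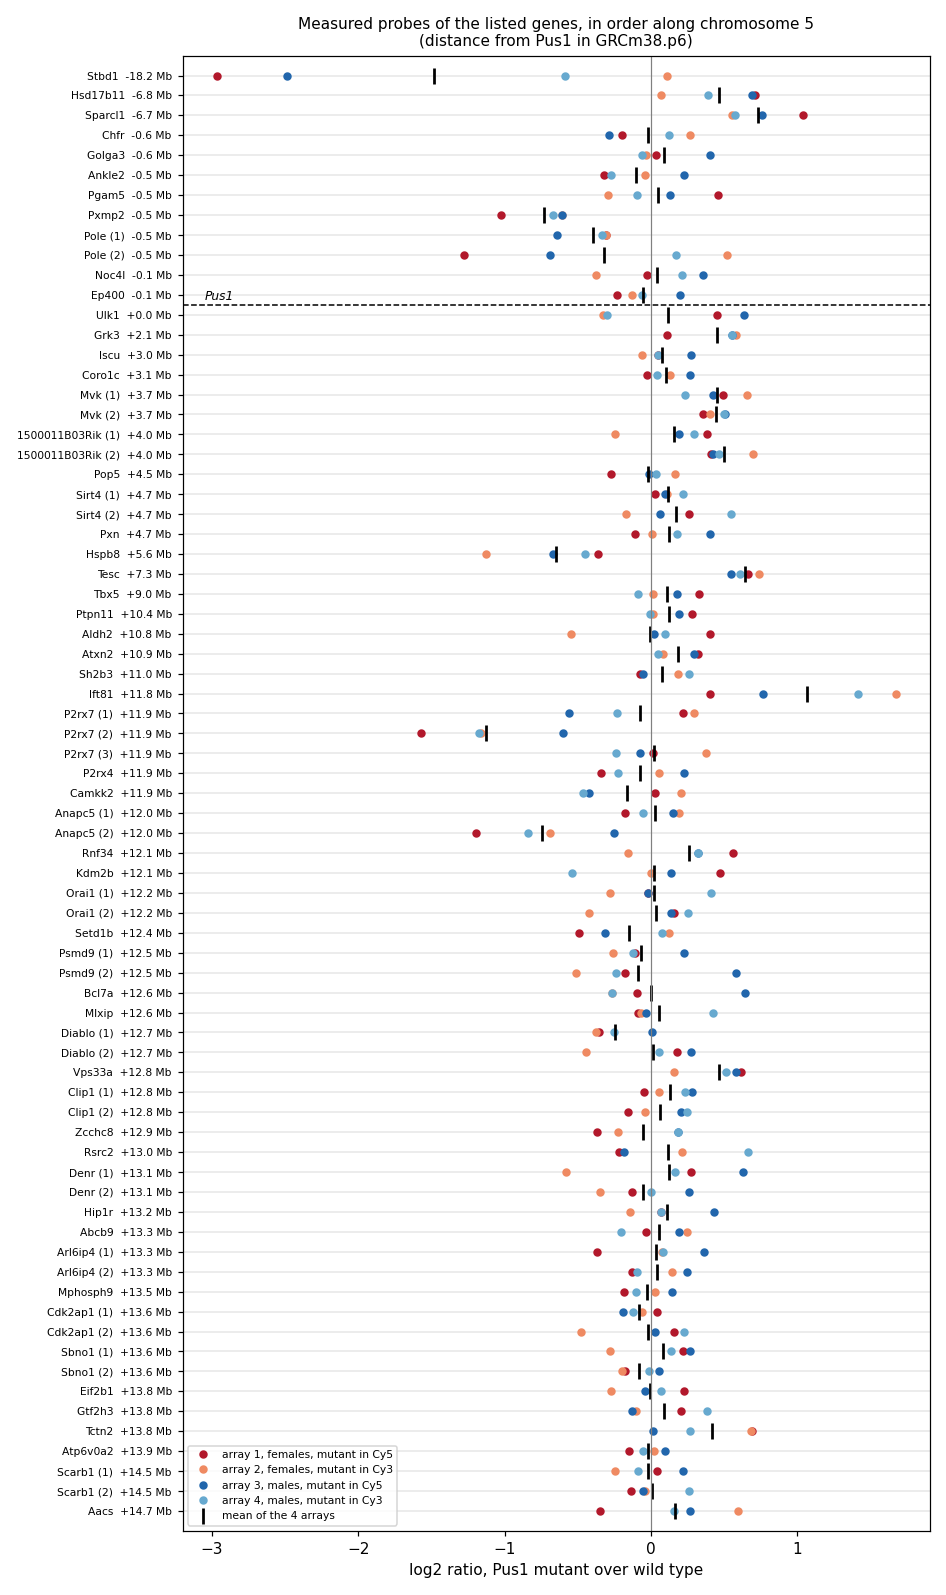
Mutant over wild-type log2 ratio (horizontal axis) of each measured probe of the listed genes, 1 row a probe in chromosome order, with a point for each of the 4 arrays and a bar for their mean. The dashed line marks Pus1. All 4 points lie on one side of 0 for 17 probes, Tesc at 0.55 to 0.74 among them, and Stbd1 shows points from -2.97 to 0.11.

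Among ion channels and calcium-binding proteins, P2rx7 and Tesc stood out. P2rx7 encodes an ATP-gated cation channel of immune and other cells. Its probe A_52_P393314 stood at 7.18, 7.78, 8.22 and 7.53 in mutant hearts and at 8.75, 8.94, 8.82 and 8.71 in wild-type hearts. Every mutant heart lay below every wild-type heart, and the ratios of -1.57, -1.16, -0.60 and -1.18 averaged -1.13 (SD 0.40, n = 4), or 2.18-fold lower. The SD was 0.44 among mutant levels and 0.10 among wild-type levels.

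Tesc encodes tescalcin, a calcium-binding partner of the sodium-hydrogen exchanger. It was among the bright probes, at 15.83, 15.87, 16.00 and 15.98 in mutant hearts and at 15.17, 15.13, 15.46 and 15.37 in wild-type hearts. The groups did not overlap, and the ratios of 0.66, 0.74, 0.55 and 0.61 were the most even of the 8, with a mean of 0.64 (SD 0.08, n = 4), or 1.56-fold higher. The remaining channels and calcium genes were close to 0. P2rx4, the ATP-gated channel encoded next to P2rx7, had a mean ratio of -0.07 (SD 0.26). Orai1, the pore subunit of store-operated calcium channels, gave 0.03 and 0.02 on its 2 probes, and Camkk2, a kinase upstream of AMPK, gave -0.16.

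Of the cilium and centrosome genes, Ift81 and Tctn2 were positive on all 4 arrays. Ift81 encodes a tubulin-binding component of the particles that carry cargo along cilia. It stood at 12.04, 12.76, 12.13 and 12.26 in mutant hearts and at 11.64, 11.09, 11.37 and 10.85 in wild-type hearts. The lowest mutant heart was above the highest wild-type heart, and the ratios of 0.40, 1.67, 0.77 and 1.41 averaged 1.06 (SD 0.58, n = 4), or 2.09-fold higher. The mean ratio was 0.59 with the mutant in Cy5 and 1.54 with the mutant in Cy3. In limma the dye term had an unadjusted p of 0.01475 and an adjusted p of 0.486. For dye 0 of 73 listed probes and 0% of all probes passed, though 2769 of 28528 had an unadjusted p under 0.05. The median ratios of the 5 atrial markers, -1.49, 1.64, 0.38 and 4.28 on arrays 1 to 4, were likewise higher on arrays 2 and 4 than on arrays 1 and 3, and their part in the Ift81 values was not tested. Tctn2, a protein of the ciliary transition zone, gave 0.69, 0.68, 0.01 and 0.27, a mean of 0.42 (SD 0.33), and Mphosph9, a centriolar protein, gave -0.03. Without overlap, Tctn2 stood at 9.06, 9.11, 8.59 and 8.85 in mutant hearts and at 8.37, 8.42, 8.58 and 8.58 in wild-type hearts.

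Lipid, sterol, peroxisome and glycogen genes had 4 same-sign probes in 8, beside 4.77% of all probes. These came from 3 genes of 6, with 2 of them from Mvk. Pxmp2 encodes a channel of the peroxisomal membrane and lies at -0.499 Mb from Pus1, where a minus sign marks the side of lower coordinates. It stood at 11.72, 11.98, 12.09 and 11.64 in mutant hearts and at 12.75, 12.59, 12.70 and 12.31 in wild-type hearts. The groups did not overlap, and the ratios of -1.03, -0.61, -0.61 and -0.67 averaged -0.73 (SD 0.20, n = 4), or 1.66-fold lower. Mvk encodes mevalonate kinase of sterol synthesis, and its 2 probes gave means of 0.45 (SD 0.18) and 0.44 (SD 0.07). Its brighter probe stood at 10.95, 10.84, 10.82 and 10.74 in mutant hearts and at 10.46, 10.19, 10.40 and 10.51 in wild-type hearts, with no overlap. Mmab, on the other side of the shared promoter stretch, gave 0.05 (SD 0.18), -0.16 (SD 0.36) and -0.22 (SD 0.23) on its 3 probes, the last with a negative ratio on all 4 arrays.

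Hsd17b11, an enzyme of the lipid droplet surface, was positive on all 4 arrays (0.71, 0.07, 0.69 and 0.39, mean 0.46). Its levels of 10.97, 10.58, 11.07 and 11.53 in mutant hearts nonetheless overlapped those of 10.26, 10.51, 10.38 and 11.14 in wild-type hearts. Scarb1, the receptor for high-density lipoprotein, gave -0.02 and 0.01 on its 2 probes, and Aacs, which activates acetoacetate for lipid synthesis, gave 0.17 (SD 0.39).

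Stbd1, a glycogen-binding protein, had the mean farthest from 0 of the listed probes and was singled out after its values were seen. Its levels were 6.67, 9.15, 7.12 and 8.99 in mutant hearts and 9.64, 9.04, 9.60 and 9.58 in wild-type hearts. Mutant replicates 1 and 3, the pair labelled with Cy5, lay below every other heart by a wide margin, and mutant replicates 2 and 4, labelled with Cy3, lay near wild type. The ratios were -2.97, 0.11, -2.49 and -0.59 (mean -1.48, SD 1.48, n = 4). The mean level in Cy5 minus that in Cy3 was -2.18 among mutants and -0.31 among wild-type hearts. In limma the probe's dye term had an unadjusted p of 0.00113 and an adjusted p of 0.379, where 0 of 28528 probes passed. With 2 hearts in each dye and genotype, the animal and the dye cannot be told apart for this probe.

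**Figure D2:**
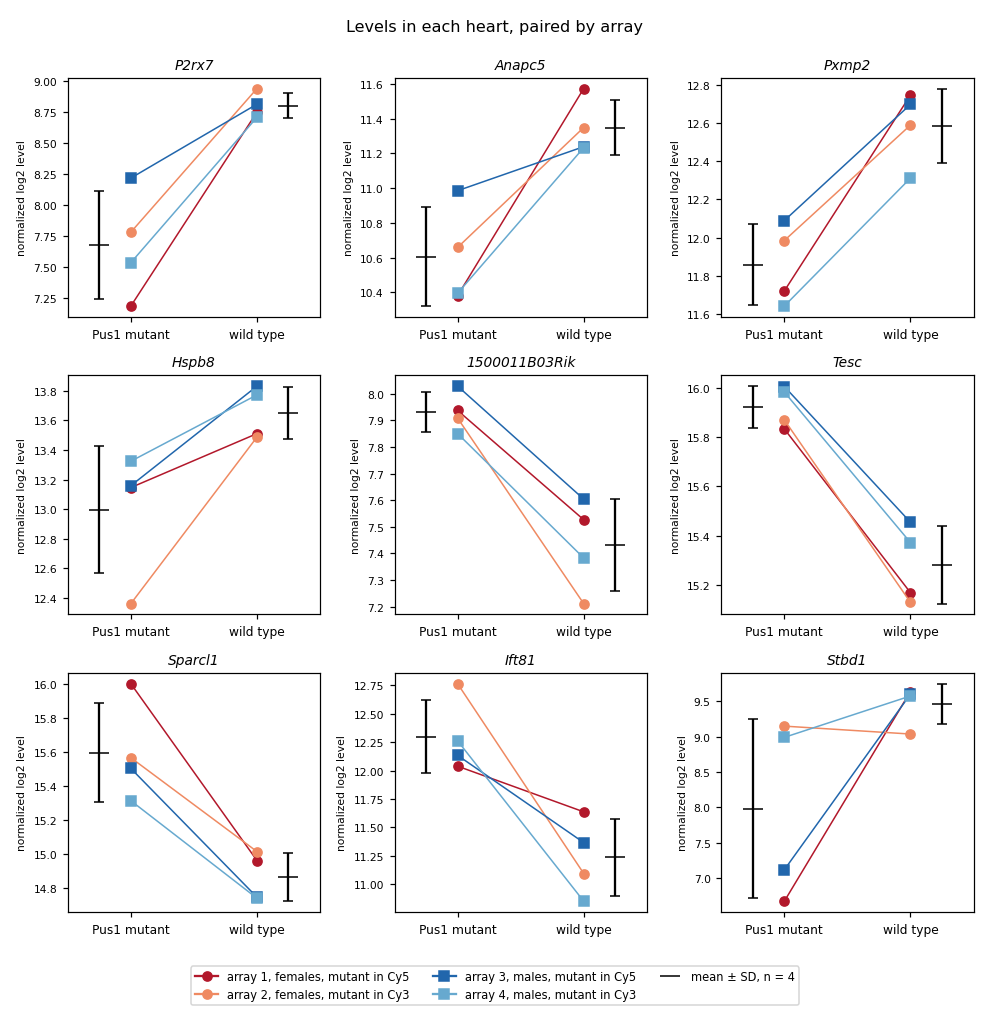
Normalized log2 level (vertical axis) of the 8 probes with an even ratio of at least 0.5 and of Stbd1 in each heart, mutants on the left and wild type on the right of each panel, with a line joining the hearts of an array and bars for mean ± SD (n = 4). Vertical axes differ between panels and do not start at 0. Tesc, Pxmp2 and P2rx7 show no overlap between the genotypes, and for Stbd1 the mutant hearts at 6.67 and 7.12 are those labelled with Cy5.

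Sparcl1 and Hspb8 were the brightest of the remaining even members. Sparcl1 encodes a secreted glycoprotein of the extracellular matrix. It stood at 16.00, 15.57, 15.50 and 15.31 in mutant hearts and at 14.96, 15.01, 14.75 and 14.74 in wild-type hearts, without overlap. The ratios of 1.04, 0.55, 0.76 and 0.57 averaged 0.73 (SD 0.23, n = 4), or 1.66-fold higher. Hspb8 encodes a small heat shock protein that works with Bag3 in the removal of damaged proteins in muscle. It stood at 13.15, 12.36, 13.16 and 13.32 in mutant hearts and at 13.51, 13.49, 13.83 and 13.77 in wild-type hearts. The highest mutant heart was below the lowest wild-type heart, and the ratios of -0.36, -1.12, -0.67 and -0.45 averaged -0.65 (SD 0.34, n = 4), or 1.57-fold lower. The median ratios of the ventricular markers were 0.14, -0.34, 0.28 and -0.34 on arrays 1 to 4, and their part in the Sparcl1 and Hspb8 values was not tested.

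Of the kinases, phosphatases and adaptors beside Hspb8, Grk3 was positive on all 4 arrays. Grk3, a kinase that switches off G protein-coupled receptors, stood at 8.86, 9.12, 9.07 and 9.02 in mutant hearts and at 8.75, 8.53, 8.52 and 8.46 in wild-type hearts, a mean ratio of 0.45 (SD 0.23, n = 4). Ptpn11, the phosphatase SHP2, gave 0.12, the adaptor gene Sh2b3 gave 0.08 and Pxn, which encodes the focal adhesion protein paxillin, gave 0.12, with mixed signs.

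Ubiquitin ligase and proteasome genes had 1 same-sign probe in 6, beside 4.77% of all probes. It was in Anapc5, a subunit of the anaphase-promoting complex. This probe, A_55_P2011659, stood at 10.38, 10.66, 10.99 and 10.39 in mutant hearts and at 11.57, 11.35, 11.24 and 11.23 in wild-type hearts. The groups did not overlap, and the ratios of -1.19, -0.69, -0.25 and -0.84 averaged -0.74 (SD 0.39, n = 4), or 1.68-fold lower. Rnf34, a RING finger ligase, gave 0.26 (SD 0.30), Chfr, a ligase of a mitotic checkpoint, gave -0.02, and Psmd9, a chaperone of proteasome assembly, gave -0.09 and -0.07.

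Membrane traffic, lysosome and autophagy genes had 1 same-sign probe in 9, beside 4.77% of all probes. It was in Vps33a, a subunit of the complexes that tether late endosomes and lysosomes. Its levels were 9.69, 9.39, 9.68 and 9.52 in mutant hearts and 9.07, 9.24, 9.10 and 9.01 in wild-type hearts, a mean ratio of 0.47 (SD 0.21, n = 4) with no overlap. Golga3 of the Golgi (0.09), the lysosomal peptide transporter gene Abcb9 (0.05), Atp6v0a2 of the proton pump (-0.02) and Hip1r of clathrin-coated pits (0.11) had mixed signs. The uncharacterised gene 1500011B03Rik, at 4.04 Mb, had 1 probe at 7.94, 7.91, 8.03 and 7.85 in mutant hearts and at 7.53, 7.21, 7.60 and 7.38 in wild-type hearts. Its mean ratio of 0.50 (SD 0.13, n = 4) was the smallest of the 8 and sat at the threshold of 0.5. Just outside it were Vps33a (0.47), Hsd17b11 (0.46) and Mvk (0.45). The mean of this 1500011B03Rik probe was 0.999 with processed signals and 0.459 without background correction, so its place among the 8 depends on the processing.

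The counts of even ratios among chromatin, RNA and mitochondrial genes stand beside 4.77% of all probes. Of 11 probes for chromatin and transcription genes, 0 had the same sign on all arrays, and their means ran from -0.15 for Setd1b, a histone H3 lysine methyltransferase, to 0.11 for Tbx5, a transcription factor of heart development. Of 10 probes for RNA processing and translation genes 1 did, that of Atxn2, an RNA-binding protein (0.19, SD 0.14), and Eif2b1, a subunit of the exchange factor for initiation factor eIF2, was at -0.01. Of 7 probes for mitochondrial proteins 1 did, a probe of Sirt4 (0.11, SD 0.08). Iscu, the scaffold for iron-sulfur clusters, gave 0.08 and Aldh2, the mitochondrial aldehyde dehydrogenase, gave -0.01. The means of these 7 probes ran from -0.24 for Diablo, which binds inhibitors of apoptosis, to 0.17 for the other probe of Sirt4.

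The 4 members nearest to Pus1 were Ulk1, Ep400, Noc4l and Pole. Ulk1, the kinase that starts autophagy, lies 0.011 Mb away. It stood at 13.20, 12.73, 13.36 and 12.80 in mutant hearts and at 12.75, 13.06, 12.73 and 13.10 in wild-type hearts. Its ratios of 0.45, -0.33, 0.64 and -0.30 were positive with the mutant in Cy5 and negative with the mutant in Cy3, with a mean of 0.12 (SD 0.50, n = 4) that was -0.058 without replicate 3. Ep400, a chromatin remodeller at -0.109 Mb, stood at 8.82, 8.95, 9.10 and 8.99 in mutant hearts and at 9.05, 9.08, 8.91 and 9.05 in wild-type hearts (mean ratio -0.05, SD 0.18).

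Noc4l, a ribosome assembly factor at -0.125 Mb, stood at 9.13, 8.75, 9.31 and 8.93 in mutant hearts and at 9.16, 9.13, 8.95 and 8.72 in wild-type hearts (mean ratio 0.04, SD 0.32). The genotypes overlapped for Ulk1, Ep400 and Noc4l.

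Pole, the catalytic subunit of DNA polymerase epsilon, lies beside Pxmp2. One of its probes gave -0.31, -0.31, -0.64 and -0.34 (mean -0.40, SD 0.16), at levels of 8.39, 8.22, 8.11 and 7.90 in mutant hearts and 8.70, 8.53, 8.75 and 8.24 in wild-type hearts, which overlapped. The other gave -1.28, 0.52, -0.69 and 0.17 (mean -0.32, SD 0.82). The mean on the other measured gene beside Pxmp2, the mitochondrial phosphatase gene Pgam5, was 0.05 (SD 0.32).

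Some genes side by side differed in sign and others shared it. From 11.8 to 12.1 Mb beyond Pus1 the measured genes in order were Ift81 (1.06), P2rx7 (-1.13 on the probe described), P2rx4 (-0.07), Camkk2 (-0.16), Anapc5 (-0.74 on the probe described), Rnf34 (0.26) and Kdm2b (0.02), a histone demethylase gene. Tesc lay between Fbxo21 (-0.19) and Fbxw8 (-0.05), and Sparcl1 between Nudt9 (0.02) and Mepe (-0.03). Neighbours of Hspb8 were Tmem233 (-0.11) and Srrm4 (-0.27, the same sign on all arrays).

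Probes of the same gene could be compared for 15 members with several measured probes. Their means differed by under 0.2 in 11 genes, by 0.2 to 0.5 in 2 and by over 0.5 in 2. The widest gap, 1.14, was in P2rx7. While A_52_P393314 averaged -1.13, A_51_P506733 gave 0.22, 0.29, -0.56 and -0.24 (mean -0.07) and A_55_P2183010 gave 0.01, 0.37, -0.08 and -0.24 (mean 0.02). A_51_P506733 stood at 7.37, 7.17, 6.60 and 7.31 in mutant hearts and 7.15, 6.87, 7.16 and 7.55 in wild-type hearts. A_55_P2183010 stood at 7.49, 7.65, 7.30 and 7.32 in mutant hearts and 7.48, 7.27, 7.37 and 7.56 in wild-type hearts. Both overlapped between genotypes and were dimmer than the first probe in wild-type hearts. They carry other transcript accessions of P2rx7, and A_51_P506733 was above background in 4 samples only.

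In Anapc5 the gap was 0.77. The other probe, A_55_P1952359, was much brighter, at 14.82, 14.97, 14.94 and 14.69 in mutant hearts and 15.002, 14.78, 14.78 and 14.75 in wild-type hearts, with ratios of -0.18, 0.19, 0.15 and -0.06 (mean 0.03). Both Anapc5 probes carry the same transcript accession. The probes of 1500011B03Rik, which carry different accessions, averaged 0.50 and 0.15, and those of Diablo -0.24 and 0.01. The 2 probes of Mvk differed by 0.01. The position of each probe in its transcript was not analysed here, and amount of RNA, its form and its binding to the probe cannot be told apart where 1 probe differs from another.

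**Figure D3:**
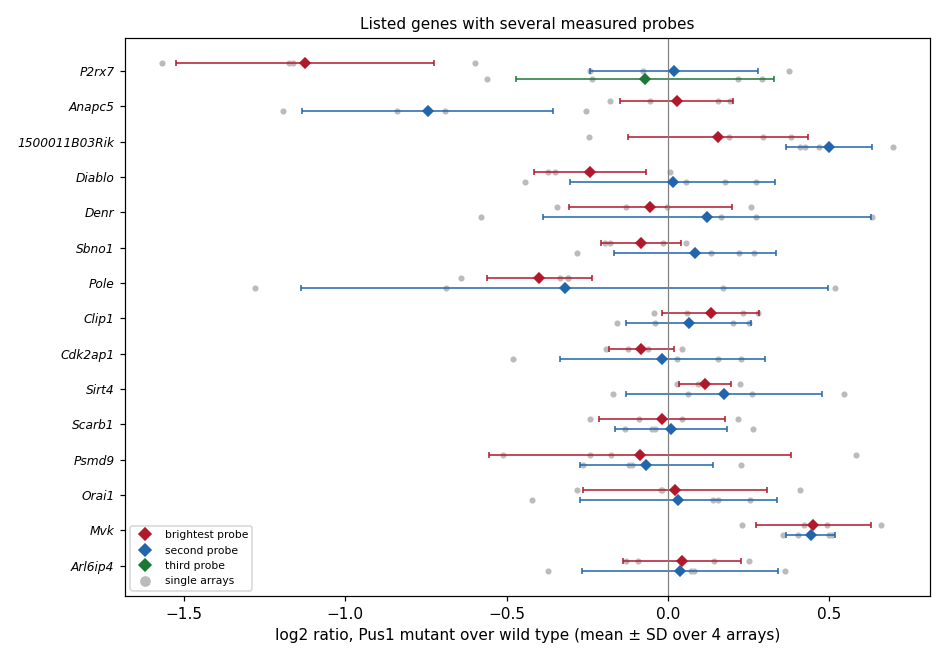
Mean mutant over wild-type log2 ratio (horizontal axis) of every measured probe of the 15 listed genes that have several, with bars for the SD over 4 arrays and grey points for single arrays. P2rx7 has 1 probe at -1.13 and Anapc5 1 at -0.74 beside others near 0, and the 2 probes of Mvk coincide at 0.45 and 0.44.

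Distance from Pus1 was then described over all measured probes of named genes, listed or not and without Pus1. An even ratio of at least 0.5 in size was found for 5 of 133 probes (3.76%) under 5 Mb, 4 of 66 (6.06%) at 5 to 10 Mb and 3 of 207 (1.45%) at 10 to 20 Mb. At 20 to 40 Mb it was found for 0 of 341 probes, farther along chromosome 5 for 0 of 337, and on the other chromosomes for 14 of 16369 (0.0855%). The share with the same sign on all 4 arrays was 21.8%, 21.2%, 9.66%, 8.50% and 5.94% over these chromosome 5 classes and 4.92% on the other chromosomes. The listed genes were chosen for being near and for their ratios, so these shares hold that choice.

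For genes that were not listed the same shares were taken. Within 20 Mb the unlisted probes had an even ratio of at least 0.5 in 4 of 333 (1.20%) and the same sign in 13.8%, against 14 of 17047 (0.0821%) and 5.02% of the probes elsewhere. By class the counts of even ratios were 3 of 112 under 5 Mb, 1 of 61 at 5 to 10 Mb and 0 of 160 at 10 to 20 Mb. Genes of a stretch share their DNA and are not independent, and no test was made. The share of unlisted probes was 0.402% when 1 probe was kept per gene, the brightest. It was 0.601% with median centring, against 0.0997% elsewhere, and 2.40% without replicate 4. With a replicate left out only 3 arrays had to share a sign, and the share elsewhere then rose as well, to as much as 0.732%.

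**Figure D4:**
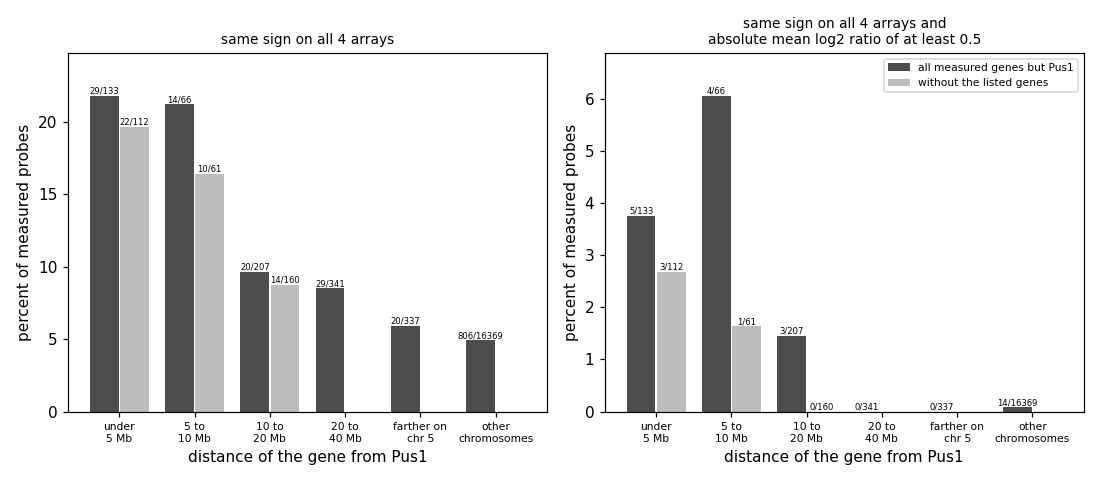
Percent of measured probes (vertical axis) with the same sign of the mutant over wild-type ratio on all 4 arrays (left), and with a mean of at least 0.5 in size as well (right), by distance from Pus1. Dark bars are all measured genes and light bars leave out the listed genes. On the right the share is 3.76% under 5 Mb and 6.06% at 5 to 10 Mb, with 0 probes beyond 20 Mb on chromosome 5.

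**Figure D5:**
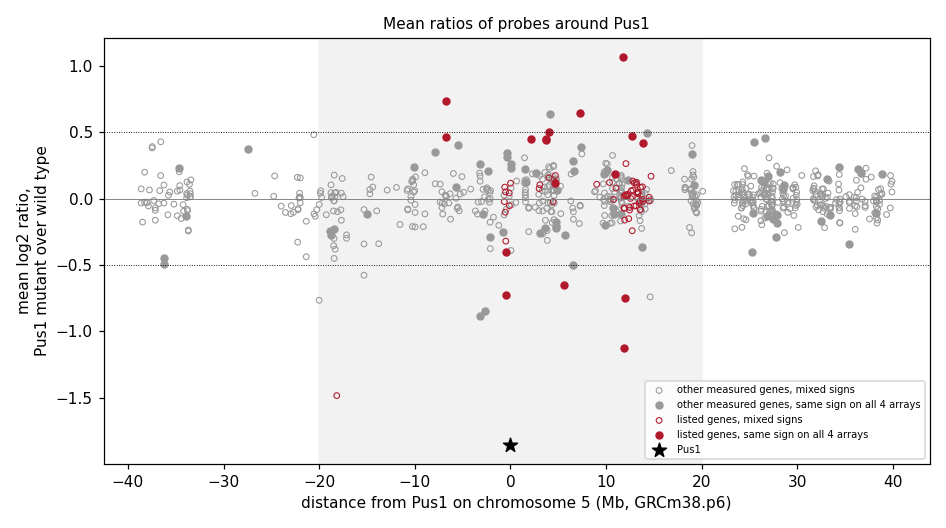
Mean mutant over wild-type log2 ratio of each measured probe (vertical axis) against distance of its gene from Pus1 in Mb (horizontal axis), with listed genes in red, other genes in grey and filled points for the same sign on all 4 arrays. Even ratios beyond 0.5 in size lie to either side of Pus1 and above and below 0.

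The unlisted genes with the same sign on all 4 arrays and the largest means were named, up to 6 in each direction. Positive were Oasl1, a gene of the oligoadenylate synthetase-like family (1.22, 0.86, 0.32 and 0.14, mean 0.64), and Gbp6, a guanylate-binding protein gene induced by interferon (0.40). They were followed by Rnft2 (0.38), the kinase gene Mapk10 (0.35) and Fbrsl1 (0.34). Oasl1 overlapped between genotypes, at 9.93, 9.77, 8.91 and 9.71 in mutant hearts and 8.71, 8.90, 8.58 and 9.57 in wild-type hearts.

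Negative were Rpap2, a phosphatase of RNA polymerase II (-0.89, SD 0.17), Tmed5, a cargo receptor of early secretion (-0.85, SD 0.30), and Pebp1, an inhibitor of the Raf kinase (-0.50, SD 0.15). They were followed by the helicase gene Ddx55 (-0.37), the lysosomal enzyme gene Idua (-0.29) and Thap6 (-0.28). Rpap2 stood at 7.23, 7.32, 7.04 and 7.01 in mutant hearts and at 7.93, 8.15, 7.97 and 8.11 in wild-type hearts, without overlap. As with P2rx7 and Anapc5, other probes of these genes differed. Those of Rpap2 averaged 0.13 and 0.17, that of Tmed5 -0.09 and that of Mapk10 0.11, while that of Fbrsl1 averaged 0.31. Brighter probes of Pebp1 (-0.07, SD 1.15), Idua (-0.00, SD 1.26) and Gbp6 (-0.06, SD 1.60) had large ratios of opposite sign. On arrays 1 to 4 Pebp1 gave -1.31, 0.91, -0.79 and 0.90. Idua gave 1.18, 0.90, -1.47 and -0.62, and Gbp6 gave 0.57, 1.60, -2.17 and -0.25. These Idua and Gbp6 probes passed adjusted p 0.05 for a difference between the sexes in limma, as did 8.61% of all probes.

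The difference between the sexes was not itself used to choose the listed genes. Whether their mutant over wild-type ratios differed between females and males was tested. The list was, however, made with the ratios of all 4 arrays known, and 17 of its 73 probes had the same sign on each. A shared sign limits how far the sexes can differ, so the count cannot show whether these genes differ less than others. With limma and a term for the difference between the sexes, 0 of 73 listed probes passed adjusted p 0.05, against 8.61% of all 28528 probes. Of the 73, 1 had an unadjusted p under 0.05 in limma, against 4644 of all 28528. By set, 798 of 16369 probes of named genes on the other chromosomes and 18 of 333 unlisted probes within 20 Mb passed. Among probes without a gene name 1610 of 11017 did, so that 8.61% is not the share of named genes. The 2455 probes called among all, 2424 of them with the higher ratio in females, became 0 with processed signals and 943 with median centring, so that the background share rests on the processing. The smallest adjusted p was 0.223, for the P2rx7 probe A_51_P506733. The female minus male difference of its ratios was 0.65 (95% interval 0.07 to 1.23).

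For the 8 members with an even ratio of at least 0.5 the difference between the sexes was smaller than the mean ratio. These 8 were picked for a shared sign on every array, so that their female and male means had to share a sign. That choice favours a difference that is small beside the mean, so the comparison cannot show whether the sexes differed. The intervals were wide. The Tesc ratio averaged 0.70 in females and 0.58 in males (difference 0.12, 95% interval -0.45 to 0.69, adjusted p = 0.927 in limma). For Pxmp2 the means were -0.82 in females and -0.64 in males (difference -0.18, -0.78 to 0.42), and for Ift81 they were 1.04 in females and 1.09 in males (difference -0.05, -0.67 to 0.56). The largest difference of the 8 was that of the P2rx7 probe A_52_P393314, with -1.37 in females and -0.89 in males (difference -0.48, -1.16 to 0.20, adjusted p = 0.561 in limma). With 2 arrays per sex, intervals of this width do not show that the sexes were alike. Over the listed probes the difference was below 0 for 55 of 73, with a median of -0.15. Over all probes it was below 0 for 16295 of 28471, with a median of -0.05. For named genes on the other chromosomes it was below 0 for 11003 of 16369 probes (median -0.11). For unlisted probes within 20 Mb it was below 0 for 226 of 333 (median -0.10). Probes without a gene name went the other way, with 4540 of 11017 below 0 (median 0.09).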

How the data were processed

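RNA of 8 hearts was hybridised to 4 2-colour Agilent arrays, 1 mutant and 1 wild-type heart each. The deposited intensity values used were median spot and local background signals, which the authors obtained from a grid annotated for mm9, per the file headers, using Agilent Feature Extraction 10.7.3.1. Mean signals, planned first, were replaced by medians. The deposited series matrix holds log2 values, centred per probe over the 8 samples. Its array differences correlated at 0.991 to 0.998 with the log2 ratio of processed signals from the authors' files, which settled scale and direction. The matrix's normalization is not given in the sources used here, and column medians ran from -0.03 to 0.08.

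Background was corrected by normexp (offset 50) and ratios by loess in limma 3.58.1 (R 4.3.3), with control and non-uniform spots at weight 0. Of 55681 probes 28528 were well above background in at least 4 samples. Mutant over wild-type ratios entered lmFit and eBayes with a dye term (2 residual degrees of freedom), or with sex and dye (1). P-values were 2-sided and Benjamini-Hochberg adjusted over all probes at a threshold of 0.05. Per-sample levels were separate channels after loess and Aquantile. Of 23171 RefSeq accessions 21865 were named through a RefSeq table of GRCm38.p6, which also gave positions. Distances were taken between the lower coordinates of the genes, whichever strand they are on. Both samples of a pair share an array, which the ratio takes as the block. Their deviations from the genotype means correlated at -0.49, -0.12, -0.36 and 0.49 on arrays 1 to 4.

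The listed genes, their role groups and the naming rule were chosen with earlier results of these data known. Values in every sample are given for members with an even ratio of at least 0.5 in size, for members whose probes differ by over 0.5 and for the 4 nearest to Pus1, and up to 6 unlisted genes are named per direction, of which 1 is not reported here. Other members described with levels, and Stbd1, were chosen after their values were seen. Median ratios of other marker lists over the arrays were -0.72 to 2.02 for adipocytes, -0.11 to 0.22 for endothelium and -0.12 to 0.16 for fibroblasts. They were -0.67 to -0.00 for lymphocytes, -0.14 to 0.30 for macrophages and -0.53 to 0.58 for skeletal muscle. Only 2 of 5 adipocyte markers and 1 of 5 skeletal muscle markers were measured. The fits were tested on simulated data. All 4 arrays were on 1 slide, so that no slide or scan could be tested as a batch.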

Additional observations from a re-analysis of the deposited data

Results flagged for a closer look

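In 3 of 38 groups of 4 levels examined, 1 heart lay far from the others by Dixon's test at the 95% level, which chance does in about 1 group in 20. For Stbd1 it was wild-type replicate 2, at 9.04 against 9.58 to 9.64 in the other wild-type hearts. For Ep400 it was wild-type replicate 3, at 8.91 against 9.05 to 9.08. For the brighter Anapc5 probe it was wild-type replicate 1, at 15.002 against 14.75 to 14.78. None of these 3 probes had the same sign on all 4 arrays.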

How the results depend on the processing

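Probes past the threshold for genotype numbered 0 as reported and 1, Pus1, under median centring, separate channels without a replicate block or with a random replicate block, and a sex by genotype term. The 2455 probes past it for genotype by sex became 0 with processed signals, series matrix values, no replicate block, the random block and no dye term, 943 with median centring and 1299 with probes above background in all 8 samples. Listed probes past either threshold were 0 in every setting run. Same-sign listed probes, 17 as reported, were 3 with median centring and 23 to 29 when a replicate was left out. Even ratios of at least 0.5 among them, 8 as reported, were 13 with processed signals and with series matrix values and 3 with median centring. With a size of 0.3 or 1 in place of 0.5, chosen after seeing the data, they were 15 or 2. The median of the listed ratios moved to 0.15 with median centring, which moved that of all probes to 0.08.

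The share of even ratios within 20 Mb, 2.96% as reported, was 5.91% with processed signals, 6.16% with series matrix values, 1.23% with median centring, 6.65% at 0.3 and 0.493% at 1. Elsewhere it was 0.0821% as reported, 0.604% with processed signals, 0.609% with series matrix values, 0.657% at 0.3, 0.0059% at 1 and 0.317% to 0.732% with a replicate left out, where 3 arrays had to share a sign. Among unlisted probes within 20 Mb it was 1.20% as reported, 3.30% with processed signals, 3.60% with series matrix values and at 0.3, 0.601% with median centring, 0.786% with no filter, 0.402% with the brightest probe per gene, 0 at 1 and 0.901% to 2.40% with a replicate left out. The Pus1 ratio was -2.83 with processed signals and -2.84 with series matrix values. Ulk1 ran from -0.058 without replicate 3 to 0.26 without replicate 2. Of 442 values of 35 named probes 427 moved by less than the spread between arrays, 14 by more and 1 turned. The causes of these moves were not tested.

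Genotype by sex could not be fitted with a replicate left out, for want of residual degrees of freedom. With 4 arrays the precision is limited, and dim probes lie near the offset of 50, which draws their ratios towards 0.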
